A study of Mus musculus with 36 samples.

Results

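The circRNAs described here are the abundant uncatalogued ones in a circRNA table from mouse brain. Their identifiers begin with novel_circ_, while those of catalogued circRNAs begin with mmu_circ_. The members were chosen by their read counts, a feature being taken when its reads summed to at least 1200 over the 12 circRNA libraries. Features with 0 reads in at least 1 library and 20 or more in every other were left out. In all, 277 uncatalogued circRNAs reached 1200 reads, 4 of them were removed by the condition on zeros, and 273 remained. They made up 1.74% of the 15690 circRNAs listed and 1.88% of the 14493 uncatalogued ones. By the same rule 411 of 1197 catalogued circRNAs were abundant (34.3%). Since read counts selected them, their abundance is a description and was not tested.

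A circular RNA forms by back-splicing, when the end of an exon is joined to the start of the same or an upstream exon, so that the molecule has no free ends. Without ends it escapes the exonucleases that degrade linear RNA and can persist in long-lived cells, and brain is known as a tissue rich in circRNAs. Sequencing detects a circRNA through reads that cross the back-splice junction, which are a small part of all reads from the locus. The table pairs none of these identifiers with a gene, a position or a sequence. The circRNAs are therefore given here by identifier, and whether a role is known for any of them could not be looked up.

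All mice were of the C57BL/6 strain. APP/PS1 mice express APP695swe and PS1-dE9, mutant forms of the amyloid precursor protein and of presenilin 1, and are used as a model of amyloid deposition in Alzheimer's disease; the labels do not name the promoter of the transgenes. The 4 groups were wild type at 6 months, APP/PS1 at 6 months, wild type at 9 months and APP/PS1 at 9 months, with 3 circRNA libraries each. Libraries are named here by genotype, number and age, as in WT 1 of 6 months. Whether the 3 libraries of a group stem from different animals is not stated in the labels, and p-values refer to the spread among these libraries, part of which may be technical. The tissue label of each sample reads brain, while the protocol text speaks of retinas. In the long RNA libraries of the same titles 4 neuronal marker genes summed to 1419 to 1613 FPKM and 6 retinal genes to 0.615 to 1.37 FPKM, 4 of the 6 with a mean under 0.1. As these are bulk samples, fewer cells of a type and less RNA per cell cannot be told apart.

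CircRNA reads per library ran from 247998 in WT 2 of 9 months to 654147 in WT 1 of 9 months, and 12163 to 14447 circRNAs were detected in each. WT 1 of 9 months stood apart from the rest. Over the 273 members its median Spearman rho with the other libraries was 0.613, against medians of 0.753 to 0.803 for the other 11. It held the highest level of 80 members and the lowest level of 63. The calls of members and their spread over libraries are given with and without it. Most other results that involve it, such as the members whose groups did not overlap, are given only with it.

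Levels are given as CPM, the count of a circRNA relative to the library's total circRNA count, scaled to a common total. The members spanned a wide range of abundance. Their reads over the 12 libraries ran from 1200 to 48426 with a median of 1743, and their mean levels from 253 to 10440.5 CPM with a median of 372. Of the 273, 69 had at least 2400 reads and 16 had at least 5000. The 10 most abundant held 20.1% of the members' reads, the top 50 held 42.6% and the top 100 held 60.4%. At the threshold, novel_circ_0023290 and novel_circ_0053113 (1200 reads each) and novel_circ_0007651 (1201) lay just inside, and novel_circ_0042070 (1198), novel_circ_0043150 (1191) and novel_circ_0048920 (1190) just outside. With each library scaled to the same depth before summing, 273 uncatalogued circRNAs again passed, 269 of them shared.

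The most abundant member, novel_circ_0044209, had a mean level of 10440.5 CPM, but it was not present at that level in every library. Its 6-month levels were 55.3, 15539 and 15487 CPM (wild type) and 16915, 15828 and 53.4 (APP/PS1). Those of 9 months were 13852, 16189.6 and 22.1 CPM (wild type) and 16495, 30.8 and 14819 (APP/PS1). It was thus high in 8 libraries and low in 4, and each group had 1 low library.

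The next members by level varied far less. novel_circ_0029293 averaged 2949.7 CPM ± 588 (SD, n = 12 libraries), with its highest value, 4478, in WT 1 of 9 months. novel_circ_0019891 averaged 2789.6 CPM ± 235, from 2457 to 3194. novel_circ_0055448 averaged 2008 CPM ± 235, with 2346, 2493 and 2272 in wild type at 6 months and 1778 to 2013 in the other groups. These 3 were each seen at a like level in every library, within 2-fold. novel_circ_0035535 (1983 CPM ± 220.2), novel_circ_0027179 (1929 ± 232), novel_circ_0008301 (1836 ± 242), novel_circ_0033185 (1768 ± 219) and novel_circ_0005162 (1759 ± 193) followed, with means that lay closer to each other than their spread over libraries. The tenth, novel_circ_0044742, averaged 1308 CPM ± 150.5. None of these 10 was called in any of the 7 comparisons given further on (smallest edgeR adjusted p = 0.581, for novel_circ_0055448).

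**Figure D1:**
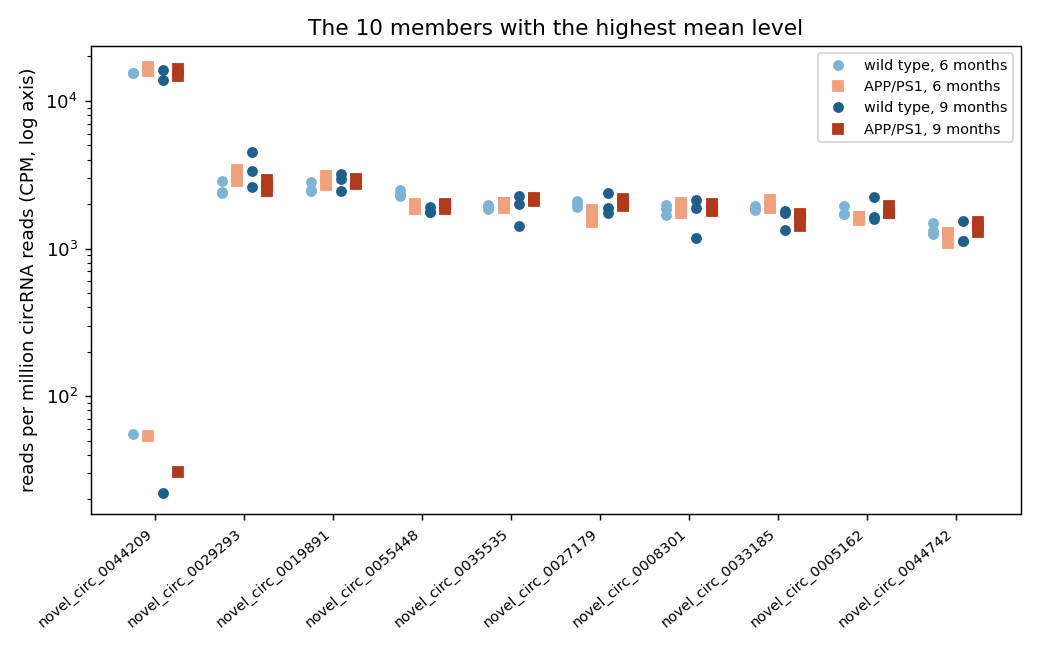
Level of the 10 most abundant members in each of the 12 libraries (CPM, log axis), with 1 point per library, coloured by group. The first, novel_circ_0044209, falls into 8 libraries between 13852 and 16915 CPM and 4 libraries between 22.1 and 55.3, while the points of the other 9 stay close together.

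Together the members held 670377 of the 4686875 circRNA reads (14.3%), and the abundant catalogued circRNAs held 36.7%. At 6 months the members' share was 13.3%, 14.5% and 14.6% (wild type) and 14.4%, 14.6% and 13.6% (APP/PS1). At 9 months it was 15.0%, 14.4% and 13.6% (wild type) and 14.8%, 13.8% and 14.5% (APP/PS1). The group means were 14.2% ± 0.710 (SD, n = 3), 14.2% ± 0.544, 14.4% ± 0.698 and 14.4% ± 0.532 in that order, so the groups overlapped and differed by less than their spread. The lowest 4 shares belonged to the 4 libraries in which novel_circ_0044209 was low. Without that circRNA the share ran from 12.7% to 13.7% (mean 13.2%, SD 0.352 in place of 0.542).

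**Figure D2:**
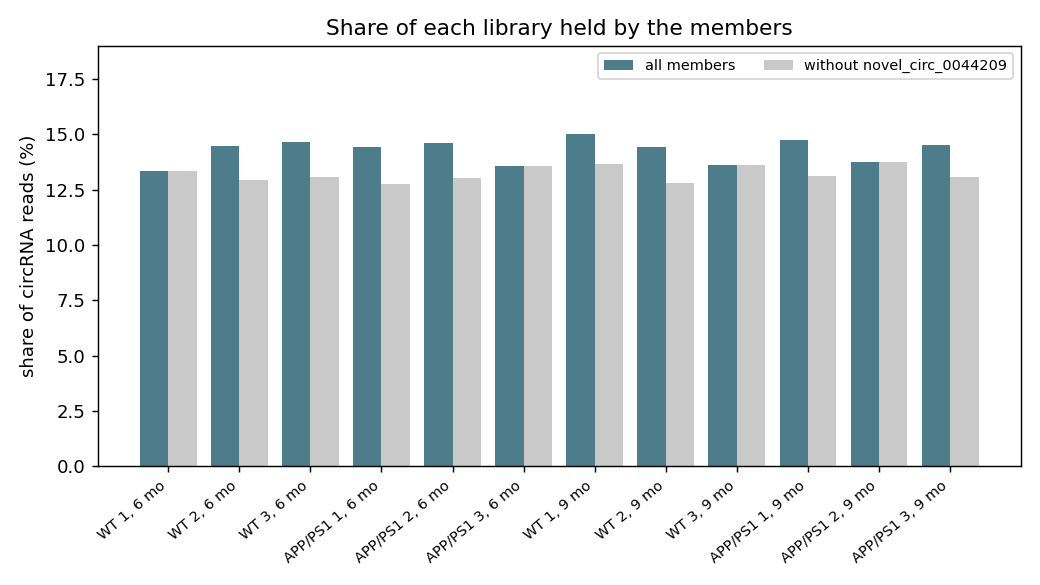
Share of each library's circRNA reads held by the 273 members (dark bars, %) and by the members without novel_circ_0044209 (light bars), for the 12 libraries in group order. The dark bars lie between 13.3% and 15.0%, and the pairs of bars are equal where novel_circ_0044209 is low.

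Most members were steady from library to library. The coefficient of variation of a member's CPM over the 12 libraries had a median of 14.6% (quartiles 11.6% and 19.5%), and reads counted at random would give a median of 8.48%. In 13 members the spread was below that of counting error. Abundant catalogued circRNAs had a median coefficient of 13.9%. A coefficient over 20% was found in 60 of 273 members and in 84 of 411 catalogued circRNAs, and one over 50% in 7 and 2. Without WT 1 of 9 months, an alternative chosen after the data were seen, the members' median was 12.9% and 45 members were over 20%. The median biological coefficient of variation that edgeR fitted within groups was 18.2% for the members, 17.9% for the abundant catalogued circRNAs and 34.0% for all 14872 circRNAs tested. These fitted values are drawn toward the trend over all circRNAs tested. For the members the fitted median exceeded the 14.6% over all 12 libraries, so it is not their own spread within groups.

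On values scaled by edgeR's TMM factors, the steadiest members were novel_circ_0020997 (coefficient of variation 5.24%, 288 to 337 TMM-scaled CPM), novel_circ_0014861 (5.89%) and novel_circ_0016347 (5.98%). The most variable were novel_circ_0043144 (153%), novel_circ_0030196 (100.1%) and novel_circ_0030212 (99.8%). The spread of these 3 came from separate high and low libraries, as described next.

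**Figure D3:**
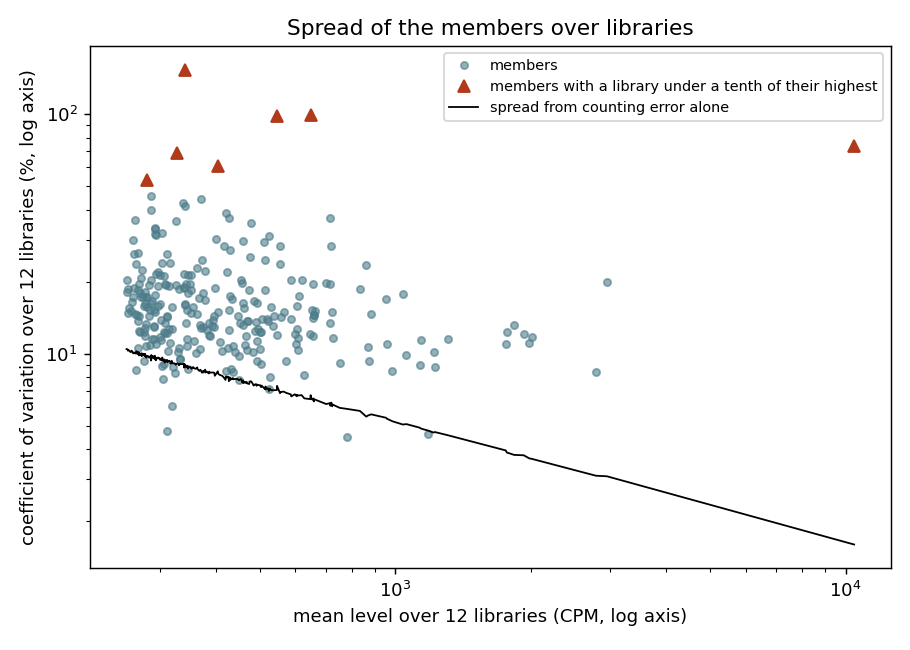
Coefficient of variation over the 12 libraries (%, log axis) against mean level (CPM, log axis) for the 273 members, with the spread that counting error alone would give (line). The 7 triangles mark members with a library under 0.1 times their own highest level, and their coefficients are all over 50%.

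In 7 members (2.56%) at least 1 library lay under 0.1 times the member's own highest CPM, a criterion chosen after the values were seen, and 2 of 411 abundant catalogued circRNAs (0.487%) met it. The condition on zeros had been applied to both sets before. It left out 4 uncatalogued circRNAs, and the number of catalogued ones it left out is not given here. The shares therefore do not show how common such circRNAs are in either kind. Without WT 1 of 9 months the number was again 7. In novel_circ_0044209 the low libraries held 8 to 21 reads and the high ones 4015 to 9061.

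novel_circ_0030196 and novel_circ_0030212 were low in the same 5 libraries, APP/PS1 1 and 2 of 6 months, WT 2 and 3 of 9 months and APP/PS1 1 of 9 months. novel_circ_0030196 had 6-month levels of 745, 1353 and 1384 CPM (wild type) and 16.6, 6.63 and 1321 (APP/PS1). Its 9-month levels were 1659, 0 and 22.1 CPM (wild type) and 5.35, 618 and 651 (APP/PS1). novel_circ_0030212 ran from 16.1 to 47.0 CPM in those 5 libraries and from 473 to 1472 in the other 7. Both were thus high in all 3 wild-type libraries of 6 months and mixed in the other 3 groups. Over the 12 libraries their Spearman rho was 0.930, given as a description. novel_circ_0030196 is the sole member with 0 reads in a library, and since the table holds no count of 1, a 0 may stand for a low count and no limit was taken from it.

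novel_circ_0043144 was the reverse case, low in 9 libraries (22.9 to 92.1 CPM) and high in 3. The high values were 1059.6 CPM in APP/PS1 3 of 6 months, 1443 in WT 3 of 9 months and 1091 in APP/PS1 2 of 9 months. These are 3 of the 4 libraries in which novel_circ_0044209 was low, and the Spearman rho of the pair was −0.727. In the other of the 4, WT 1 of 6 months, novel_circ_0043144 lay at 92.1 CPM, its highest value among the 9 low libraries.

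The other 3 such members were low in 1 or 2 libraries. novel_circ_0052313 lay at 8.29 and 19.9 CPM in APP/PS1 1 and 2 of 6 months, at 64.5 in WT 2 and 93.7 in APP/PS1 1 of 9 months, and at 341 to 622 in the other 8. The 4 lowest were among the 5 libraries in which novel_circ_0030196 was low. novel_circ_0026543 lay at 13.2 CPM in WT 1 and 17.8 in APP/PS1 3 of 6 months, against 321 to 881 in the other 10. novel_circ_0018837 lay at 11.05 CPM in APP/PS1 2 of 6 months, against 121 to 498 in the other 11. Of the 7 members, novel_circ_0043144 alone was low in all 3 libraries of a group, wild type at 6 months, and in novel_circ_0052313 and novel_circ_0018837 the low libraries were all APP/PS1 of 6 months. In the other 4 the low libraries included both genotypes.

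**Figure D4:**
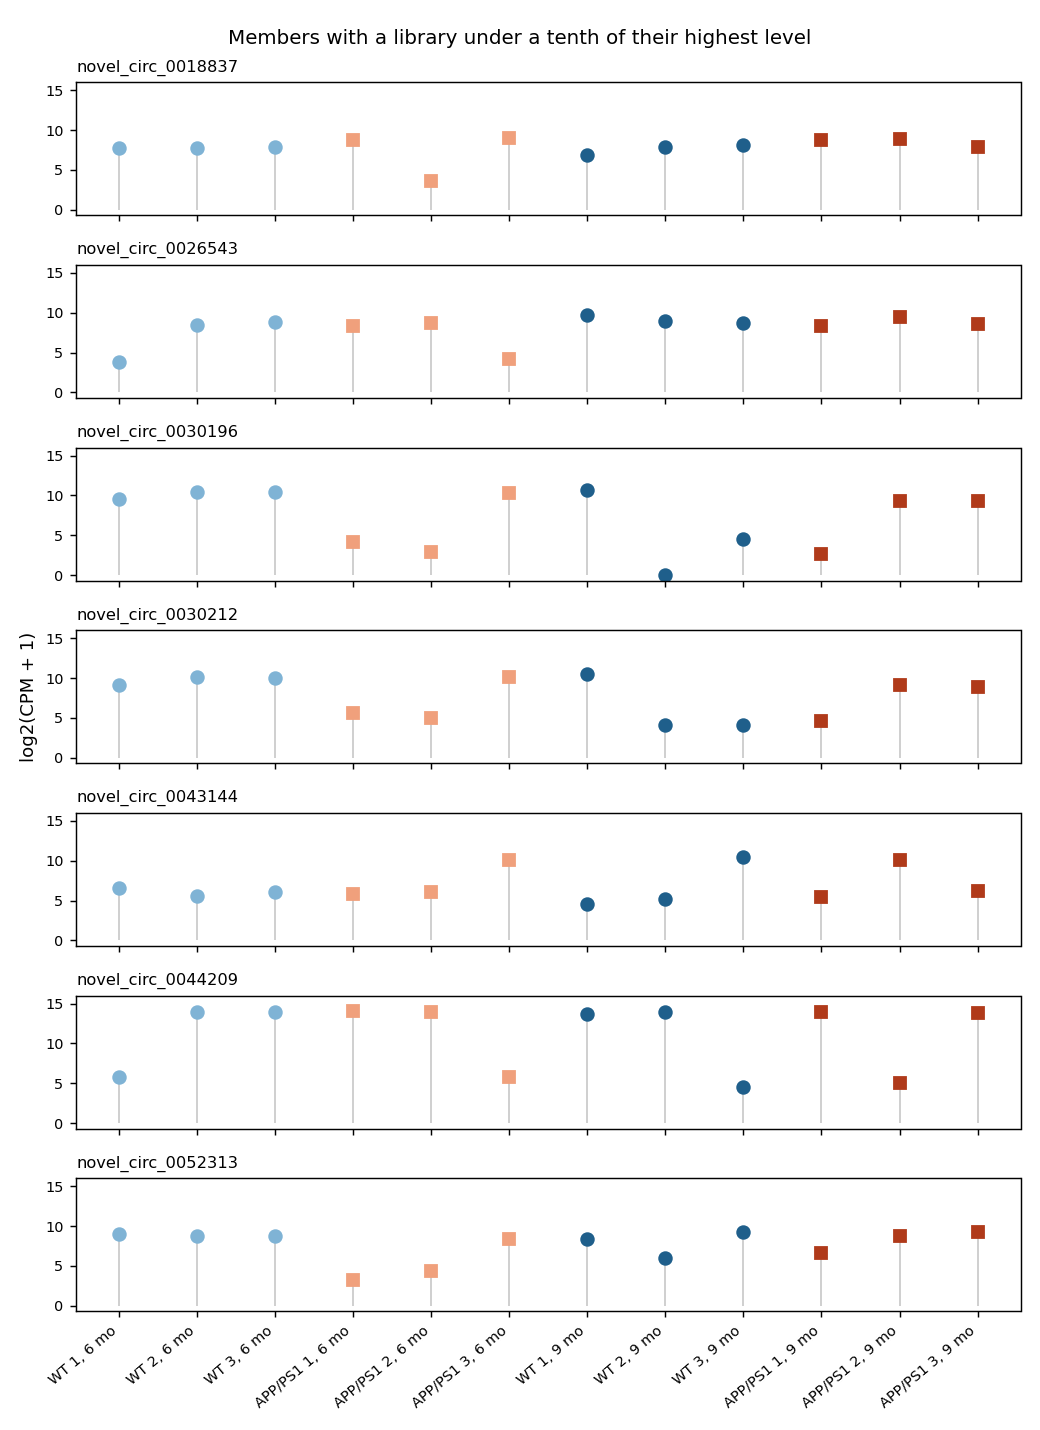
Level in each library, as log2(CPM + 1), of the 7 members with a library under 0.1 times their highest level. Circles are wild type and squares APP/PS1, and the light and dark colours are 6 and 9 months; novel_circ_0044209 is low in 1 library of each group, and novel_circ_0030196 and novel_circ_0030212 drop in the same 5 libraries.

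For some of the 7, other circRNAs of the table were lowest in the same libraries. Each of the 7 was compared with 3379 circRNAs by Pearson correlation of log2 levels over the 12 libraries, as a description. The nearest to novel_circ_0044209 was novel_circ_0044168 (r = 0.958), which had a mean of 107 CPM and ran from 25.4 to 177. The nearest to novel_circ_0026543 were novel_circ_0026538 (r = 0.991) and novel_circ_0026533 (r = 0.988), followed by the catalogued mmu_circ_0001803 (r = 0.962), which had a mean of 1158 CPM and was listed at 0 in WT 1 of 6 months. The nearest to novel_circ_0018837 was mmu_circ_0000659 (r = 0.926), lowest in the same library, APP/PS1 2 of 6 months. In the first 2 of these cases the identifiers of the uncatalogued circRNAs lay close together in number. So did those of novel_circ_0030196 and novel_circ_0030212, each the nearest to the other (r = 0.966). In the remaining cases the numbers lay far apart. The nearest to novel_circ_0043144 was novel_circ_0012806 (r = 0.925), and the nearest to novel_circ_0052313 was novel_circ_0031235 (r = 0.91).

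The table does not say what the number in an identifier stands for, so closeness in number was examined as a property of the names. Among pairs of members whose numbers differed by 10 or less, 7 of 24 (29.2%) had a Pearson r over 0.5 across libraries. For pairs 11 to 50 apart the share was 27.8% of 36, for pairs 51 to 200 apart 11.8% of 203, and for pairs over 200 apart 11.8% of 36865. Close pairs also included opposed ones. novel_circ_0044743 (556 CPM on average) and novel_circ_0044751 (338) had an r of −0.824, and novel_circ_0044742 (1308), beside them in number, had an r of 0.634 with novel_circ_0044751. novel_circ_0044743 lay between 406 and 461 CPM in wild type at 6 months and between 546 and 831 at 9 months. novel_circ_0044751 lay between 377 and 592 in the former and between 125 and 485 in the latter. Pairs share members and libraries, so these shares carry no test.

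The design crosses genotype with age, and its question is how the RNA of the brain differs between APP/PS1 and wild-type mice at each age. All 273 members passed the filter on low counts. Values from here on are TMM-scaled CPM, and an SE is derived from the change and its F statistic, so it restates the test. At 6 months edgeR called 0 of 273 members between the genotypes, beside 7 of 14872 circRNAs tested (0.0471%). Without adjustment, 25 members had a p under 0.05 (9.16%, against 5.3% of all tested). The members were chosen for high counts, so all circRNAs tested are not a set of like abundance. For unadjusted p, here and in the later comparisons, the share of the abundant catalogued circRNAs is not given. DESeq2 called 2, novel_circ_0027638 and novel_circ_0002739 (adjusted p = 0.0059 and 0.0234), and limma 0. The median log2 change was 0.06 for the members and 0.04 for all tested, and 160 of 273 were above 0. The groups did not overlap in 53 members, which is 19.4% against 13% of all tested and 23.8% of the abundant catalogued circRNAs. Of these, 29 were higher in APP/PS1 (10.6%, against 7.44%) and 24 lower (8.79%, against 5.56%).

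The 5 members of smallest p at 6 months were not called. novel_circ_0027638 had 669, 626 and 619 in wild type against 323, 373 and 323 in APP/PS1 (log2 −0.91, SE 0.177, edgeR adjusted p = 0.0761). Both groups were tight and did not overlap. novel_circ_0002739 had 49.9, 183 and 66.9 in wild type against 342, 370.4 and 186 in APP/PS1 (log2 1.61, adjusted p = 0.163). Here the highest wild-type library lay just below the lowest APP/PS1 library. Markers of the choroid plexus moved with this difference, 5 of 5 being higher in APP/PS1 at this age in the long RNA libraries of the same titles. So were 3 of 3 astrocyte, 3 of 3 microglial, 2 of 3 oligodendrocyte and 2 of 3 pituitary genes. For neuronal genes it was 1 of 4, for retinal 2 of 6 and for striatal 0 of 4. The choroid plexus sums, given below for each library, ranked the libraries as novel_circ_0002739 did in wild type but not in APP/PS1. The part of these markers in the difference was not tested. novel_circ_0027699 had 528, 496 and 494 against 253, 271 and 316 (log2 −0.85, adjusted p = 0.244), and novel_circ_0015773 had 533, 553 and 602 against 848, 856 and 883 (log2 0.62, adjusted p = 0.311). The fifth, novel_circ_0054949, had a log2 difference of −0.78 (adjusted p = 0.244). Without WT 1 of 9 months, which is in neither group but enters the shared estimate of the spread, novel_circ_0027638 and novel_circ_0027699 were called lower (adjusted p = 0.0302 and 0.0296). Without WT 2 of 6 months novel_circ_0002739 was called (0.00355), and without WT 2 of 9 months novel_circ_0027638.

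At 9 months 0 of 273 members were called between the genotypes by edgeR, by DESeq2 or by limma, beside 1 of 14872 circRNAs tested by edgeR (0.00672%). An unadjusted p under 0.05 was found for 21 members (7.69%, against 4.44% of all tested). The groups did not overlap in 29 members (10.6%, against 10.3% of all tested), 21 higher in APP/PS1 (7.69%, against 5.61%) and 8 lower (2.93%, against 4.73%). The median log2 change of the members was −0.0043. The smallest p belonged to novel_circ_0015949, with 244, 399.9 and 334 in wild type against 704, 515 and 497 in APP/PS1 (log2 0.82, adjusted p = 0.519). Its 3 APP/PS1 libraries lay above all wild-type libraries of that age. novel_circ_0042926 (log2 0.92, adjusted p = 0.699), novel_circ_0009256 (0.75, 0.827), novel_circ_0034145 (0.76, 0.827) and novel_circ_0027638 (0.55, 0.866) followed. The members' genotype differences at the ages, which share no library, had the same sign in 128 of 273 (46.9%).

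Over both ages 0 members were called between the genotypes by edgeR, DESeq2 or limma, beside 0 of 14872 tested by edgeR (0%). At an unadjusted p under 0.05 there were 11 members (4.03%, against 4.65%). In 1 member, novel_circ_0048934, the 6 APP/PS1 libraries lay above the 6 wild-type libraries, from 433 to 539 against 387 to 427 (0.366% of members, against 0.222% of all tested, with 0.108% higher and 0.114% lower). The smallest p was that of novel_circ_0027699 (log2 −0.56, adjusted p = 0.647).

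In wild-type mice edgeR called 1 member higher at 9 than at 6 months, beside 9 of 14872 circRNAs tested (0.0605%), 7 of them higher (0.0471%). novel_circ_0002739 rose from 49.9, 183 and 66.9 (mean 99.996 ± 72.6, SD, n = 3) to 458, 335 and 384 (392 ± 62.2), a log2 change of 2.003 (SE 0.346, edgeR adjusted p = 0.0422). The 3 libraries of 9 months lay above all 3 of 6 months. In APP/PS1 it was already at 342, 370.4 and 186 at 6 months and at 352, 413 and 332 at 9 months. The call did not hold without WT 1 of 9 months (log2 1.89, adjusted p = 0.0939). Each of the 12 libraries was left out in turn, and the call held in 4 of these fits, with adjusted p from 0.00067 without WT 2 to 0.21 without WT 3 of 6 months, and log2 changes of 1.67 to 2.75. Fitted on the wild-type libraries alone it was not called (adjusted p = 0.262), and over all 21 alternatives it was called in 10. The libraries whose omission kept the call were WT 2, APP/PS1 2 and APP/PS1 3 of 6 months and APP/PS1 2 of 9 months.

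Choroid plexus markers moved with this result. In the long RNA libraries of the same titles, all 5 of the list (Ttr, Kl, Folr1, Clic6 and Otx2) were higher in wild type at 9 than at 6 months, and none was listed at 0. Their sum was 4.61, 283 and 11.2 FPKM in WT 1, 2 and 3 of 6 months and 300.2, 333 and 342 at 9 months, so the wild-type library of 6 months with the highest novel_circ_0002739 also had the highest sum. In wild type at 9 months WT 1 had the highest novel_circ_0002739 but the lowest sum. In APP/PS1 the sum was 96.5, 319 and 291 FPKM at 6 months and 110.4, 72.9 and 288 at 9 months. There too the libraries ranked by novel_circ_0002739 came in another order than by the sum. Of the other lists, 3 of 3 pituitary and 3 of 3 astrocyte genes were also higher in wild type at 9 than at 6 months. The counts were lower for microglial (1 of 3), neuronal (1 of 4), retinal (2 of 6), oligodendrocyte (0 of 3) and striatal genes (0 of 4). The labels do not say that libraries of the same title share an animal, and the part of these markers in the result was not tested.

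In this comparison 36 members had an unadjusted p under 0.05 (13.2%, against 6.27%), and the groups did not overlap in 37 (13.6%, against 11.1%), 16 higher (5.86%, against 5.31%) and 21 lower (7.69%, against 5.82%). novel_circ_0034168, with 163, 187 and 238 at 6 months and 569, 331 and 359 at 9 months, had a log2 change of 1.11 (adjusted p = 0.0631). novel_circ_0022415, with 449, 423 and 468 against 1202, 904 and 959, had 1.20 (adjusted p = 0.0736). Neither overlapped, and neither was called by edgeR. DESeq2 called both together with novel_circ_0002739 (adjusted p = 0.0114, 0.0118 and 0.000453), while limma called none. Without APP/PS1 3 of 6 months edgeR called novel_circ_0022415 as well (0.0233). novel_circ_0044743 (log2 0.64, adjusted p = 0.323) and novel_circ_0006050 (−0.68, 0.49) completed the 5 of smallest p.

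In APP/PS1 mice 0 members were called between 9 and 6 months, beside 2 of 14872 tested (0.0134%). At an unadjusted p under 0.05 there were 26 (9.52%, against 4.42%). DESeq2 called 2, novel_circ_0027638 and novel_circ_0031621, and limma 0. The groups did not overlap in 74 members (27.1%, against 13.8% of all tested and 27.5% of abundant catalogued circRNAs), 43 higher at 9 months (15.8%, against 6.64%) and 31 lower (11.4%, against 7.17%). novel_circ_0027638 had 323, 373 and 323 at 6 months and 620.4, 603 and 684 at 9 months (log2 0.90, edgeR adjusted p = 0.111). novel_circ_0031621 had 186, 196 and 191 against 431, 417 and 355 (log2 1.07, adjusted p = 0.118). The groups were well separated in both. novel_circ_0010184 had 281, 108 and 140.03 against 482, 479 and 315 (log2 1.28, adjusted p = 0.203). novel_circ_0027699 (0.79, 0.496) and novel_circ_0026253 (−0.87, 0.589) followed. Without WT 1 of 9 months 3 members were called higher, novel_circ_0031621, novel_circ_0027638 and novel_circ_0027699 (adjusted p = 0.0346, 0.0415 and 0.048). Without WT 2 of 9 months novel_circ_0027638 was called (0.0423), and without APP/PS1 1 of 6 months novel_circ_0010184 (0.0268).

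Over both genotypes 0 members were called with age, beside 1 of 14872 tested (0.00672%). At an unadjusted p under 0.05 there were 28 (10.3%, against 5.78%). DESeq2 called 3, novel_circ_0010184, novel_circ_0002739 and novel_circ_0031621 (adjusted p = 0.0124, 0.0128 and 0.0313), and limma 0. In 6 members the 6 libraries of 9 months did not overlap the 6 of 6 months (2.2%, against 0.343% of all tested and 0.973% of abundant catalogued circRNAs). Of these, 4 were higher at 9 months (1.47%, against 0.168% of all tested), novel_circ_0010184 (315 to 633 against 108 to 307), novel_circ_0044743 (579.9 to 792 against 401 to 578), novel_circ_0015877 (285 to 365 against 203 to 283) and novel_circ_0039403 (384 to 439 against 288 to 381). The 2 lower (0.733%, against 0.175%) were novel_circ_0033185, the eighth most abundant member (1409.9 to 1779 against 1813 to 2121), and novel_circ_0026253 (195 to 323 against 327 to 624). In several of these the highest library of the lower age group and the lowest of the other nearly touched. The smallest p belonged to novel_circ_0010184 (log2 1.00, SE 0.197, adjusted p = 0.0982), followed by novel_circ_0002739 (1.15, 0.106), novel_circ_0031621 (0.74, 0.106), novel_circ_0044743 (0.53, 0.165) and novel_circ_0022415 (0.73, 0.173). Leaving out 1 library ended in a single call in 4 of 12 cases, of novel_circ_0010184 without APP/PS1 1 (0.00615), novel_circ_0002739 without WT 2 (0.00334) and novel_circ_0022415 without APP/PS1 3 of 6 months (0.0232), and of novel_circ_0031621 without WT 1 of 9 months (0.0306).

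The genotype difference itself changed with age in 1 member by the interaction test, beside 6 of 14872 circRNAs tested (0.0403%), 2 of them higher (0.0134%). Wild-type and APP/PS1 means of novel_circ_0027638 were 638 ± 27.2 (SD, n = 3) and 339.5 ± 28.7 at 6 months, and 435 ± 117 and 636 ± 42.7 at 9 months. Its libraries in wild type at 9 months were 401, 565 and 339.9. The difference between the genotype effects was 1.46 on the log2 scale (SE 0.249, edgeR adjusted p = 0.0340). It was called with and without WT 1 of 9 months (adjusted p = 0.0279 without it), but the call held for 2 of the 12 libraries left out in turn, WT 1 and WT 2 of 9 months (adjusted p as high as 0.128 when APP/PS1 3 of 6 months was omitted). Markers of striatal neurons and of choroid plexus also changed sides between the ages in the long RNA libraries of the same titles. Of 4 striatal genes (Adora2a, Drd1, Drd2 and Ppp1r1b) 0 had a higher mean in APP/PS1 than in wild type at 6 months and 4 at 9 months, the same order as novel_circ_0027638. Their sums were 166 to 197 FPKM in wild type and 144 to 151 in APP/PS1 at 6 months, then 143 to 154 and 145 to 169.7. Ranked by this sum, libraries came in the order of novel_circ_0027638 in wild type at 6 months but in no other group. APP/PS1 1 of 9 months, with 620.4 of that circRNA, had a sum of 145, within the 6-month APP/PS1 range. Of the 5 choroid plexus genes 5 and then 0 were higher in APP/PS1, the opposite order. Among the other lists, 1 and then 3 of 4 neuronal genes were higher in APP/PS1. For oligodendrocyte and for pituitary genes it was 2 and then 3 of 3. For astrocyte genes it was 3 and then 2 of 3, for microglial 3 of 3 at both ages and for retinal 2 of 6 at both. No gene of the striatal or choroid plexus list was listed at 0, and the part of these markers in the result was not tested. In the other 4 members of smallest p, novel_circ_0015773 (−0.91, adjusted p = 0.245), novel_circ_0002739 (−1.72, 0.366), novel_circ_0006050 (0.95, 0.589) and novel_circ_0025819 (−0.81, 0.591), the test did not pass. Without WT 2 of 6 months novel_circ_0002739 was called in place of novel_circ_0027638 (adjusted p = 0.0157). At an unadjusted p under 0.05 there were 34 members (12.5%, against 5.98%), DESeq2 called 1 and limma 0.

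**Figure D5:**
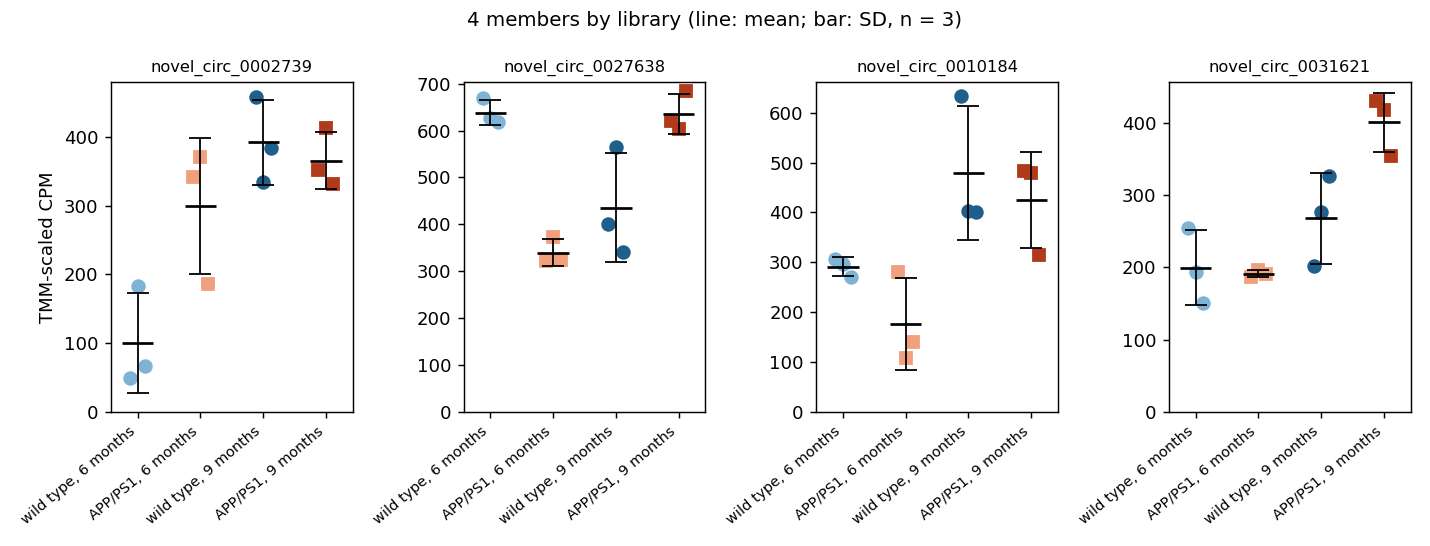
TMM-scaled CPM by library in the 4 groups for 4 members, novel_circ_0002739 (called with age in wild type), novel_circ_0027638 (called in the interaction test), and novel_circ_0010184 and novel_circ_0031621 (not called). Points are libraries, the wide line is the mean and the bar the SD (n = 3); novel_circ_0027638 is high in wild type at 6 months and in APP/PS1 at 9 months.

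The members of smallest p recurred across comparisons, which share libraries. novel_circ_0002739 and novel_circ_0027638 are each among the 5 of smallest p in at least 4 comparisons, and their levels by group differ as given above. None of the 7 members with separate high and low libraries was among those of smallest p. For novel_circ_0044209 the log2 genotype difference at 6 months was 0.12 with an SE of 1.61, so a difference of several fold was not detectable in it.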

How the data were processed

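The circRNA table holds whole-number read counts per circRNA and a column per library that the authors deposited under the name TPM. Those deposited values are CPM, made by the authors as the count over the library's total with no length term, as the table's own numbers show. Levels of marker genes came from the authors' deposited FPKM of long RNA, summed over a gene's transcripts, with unknown depth. The submitters' processing notes name Bowtie (0.12.2) and mm8 but not what each served for, and how circRNAs were called is not given in the sources used here. No count was 1, so low counts may have been removed.

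The main test was edgeR's quasi-likelihood F test (version 4.0.16, R 4.3.3, TMM scaling). It took the 14872 circRNAs with 20 or more reads in sum and 2 or more in 3 or more libraries. The 12 libraries entered 1 model with 4 group means, and 7 comparisons were made. Benjamini-Hochberg adjustment ran over all circRNAs tested, two-sided, and an adjusted p under 0.05 was called. Alternatives were DESeq2 1.42.0 (adjusted p not given for 3 members), limma 3.58.1 on log2(CPM + 0.5), other scalings and filters, a replicate block and leaving out each library. The test was tested on simulated data first. Totals of 247998 to 654147 reads set the counting error, which does not cover amplification duplicates.

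Named were the 10 members of highest mean CPM, all called members, otherwise the 5 of smallest p in a comparison, the 3 highest and 3 lowest in coefficient of variation, the 3 on each side of the threshold, and members with a 0. The 7 members with separate high and low libraries, the close identifiers and the members whose groups of 6 did not overlap were chosen after their values were seen. The members and marker lists were chosen with earlier results of these data known. The marker lists of astrocytes, oligodendrocytes, microglia, striatum and pituitary were measured too and are given beside a result or at the end.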

Additional observations from a re-analysis of the deposited data

Results flagged for a closer look

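The genotype difference of novel_circ_0027638 differed between the ages by the interaction test, by 1.46 on the log2 scale (edgeR adjusted p = 0.0340). APP/PS1 was lower than wild type at 6 months (log2 −0.91, adjusted p = 0.0761) and higher at 9 months (0.55, adjusted p = 0.866), and neither difference passed on its own. At 6 months 3 of 3 APP/PS1 libraries lay below all wild-type libraries, and at 9 months 3 of 3 lay above them. In the long RNA libraries of the same titles 0 of 4 striatal genes had a higher mean in APP/PS1 at 6 months and 4 of 4 at 9 months. Of the choroid plexus genes 5 of 5 and then 0 of 5 did, and of the neuronal genes 1 of 4 and then 3 of 4. Within groups, striatal sums ranked the libraries as novel_circ_0027638 did in wild type at 6 months alone. The part of these markers was not tested. The adjusted p ran from 0.000446 to 0.128 over the 20 alternatives, of which 8 called it.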

How the results depend on the processing

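The alternatives were followed for members named as called or of smallest p, each in the comparison that named it. None of these log2 changes reversed in direction. Since they were picked for a small p in these same data, a reversal was unlikely from the start. Of their values under the alternatives, 662 stayed on the same side of the threshold, 35 came past it and 23 lost it. The counts of called members were small and moved as follows. DESeq2 gave 2 for genotype at 6 months, 3 for age in wild type, 2 for age in APP/PS1 and 3 for age over both genotypes. Fitting the compared groups alone gave 2 for genotype at 6 months and 2 for age in APP/PS1. For age in wild type that fit also gave 1, but the member was novel_circ_0022415 (adjusted p = 0.0461) in place of novel_circ_0002739 (0.262). The stricter filterByExpr filter gave 0 for age in wild type and 0 for the interaction, as did limma on the deposited CPM, 0 and 0. Leaving out circRNAs with 0 in some libraries and 20 or more reads in every other gave 3 for age in wild type and 2 for age over both genotypes. The replicate block gave 2 for age over both genotypes and changed no other count beyond 1.5 times. Deviations from the group means, taken over all circRNAs tested, correlated between −0.0516 and 0.0484 for libraries with the same number (0 of 18 over 0.1). For libraries with different numbers they correlated between −0.0432 and 0.0462. Over the members alone the ranges were wide for both, −0.652 to 0.683 with the same number and −0.794 to 0.809 with different numbers. Libraries of the same number were thus no more alike by these ranges, which cannot exclude a pairing. With 1 library left out, the count ranged from 0 to 2 for genotype at 6 months, from 0 to 2 for age in wild type, from 0 to 3 for age in APP/PS1, from 0 to 1 for age over both genotypes and from 0 to 1 for the interaction, and stayed at 0 for genotype at 9 months and over both ages. It was highest without WT 1 of 9 months for genotype at 6 months (2) and for age in APP/PS1 (3). For age in wild type it was highest (2) when APP/PS1 3 of 6 months was left out. The cause of these shifts was not tested. The members' mean share of reads, 14.3%, moved by less than 1 SD with members chosen on depth-scaled counts. The deposited CPM are the same counts over the same totals, so the share had to be the same with them. Leaving out 1 of 12 libraries cannot move the mean by 1 SD, so that result was fixed in advance too. The mean share was 13.2%, a move of more than 1 SD, without novel_circ_0044209.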

Other observations

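Markers of other tissue and cell types differed between the long RNA libraries that carry the same titles, and their part in the circRNA results was not tested. The 3 pituitary genes summed to 0.960 to 4.99 FPKM in wild type and 1.75 to 14.5 in APP/PS1 at 6 months, and to 3.85 to 18.9 and 19.8 to 237 at 9 months, with 2 of the 3 listed at 0 in at least 1 library. The 3 microglial genes summed to 34.8 to 41.1, 44.2 to 45.7, 35.9 to 38.97 and 40.99 to 50.2 FPKM in the same order of groups, higher in APP/PS1 in 3 of 3 genes at each age. The 3 astrocyte genes summed to 436 to 478 FPKM in wild type and 523 to 574 in APP/PS1 at 6 months, which did not overlap, and to 441 to 552 and 518 to 581 at 9 months. In 3 of 3 of them the mean was higher in APP/PS1 at 6 months, in 2 of 3 it was at 9 months, and in 3 of 3 it was higher in wild type at 9 than at 6 months. The 3 oligodendrocyte genes summed to 514 to 556, 505 to 524, 454 to 582 and 544 to 576 FPKM.

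The condition on zeros removed 4 abundant uncatalogued circRNAs. It took those with 0 reads in some libraries and 20 or more in every other. A gap between their libraries was thus set by the choice, and their counts are given as a description. novel_circ_0007040 had 0 reads in 8 libraries and 1644, 614, 551 and 707 in WT 1, 2 and 3 and APP/PS1 2 of 9 months, so that it was listed at 0 in all 6 libraries of 6 months. novel_circ_0017717 had 0 reads in 4 libraries and 119 to 429 in the other 8. novel_circ_0020226 had 0 in WT 1 of 9 months and 30 to 36 reads in WT 1 of 6 months and in WT 3 and APP/PS1 2 and 3 of 9 months. In the remaining libraries it had 120 to 276. novel_circ_0039161 had 0 in WT 3 of 6 months and 95 to 309 elsewhere.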
